A study of Mus musculus with 12 samples.

Results

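The genes described here separate unmodified, induced MEL cells from 3 lines derived from them, whatever form of LDB1 those lines carried. MEL is a mouse erythroleukemia line that can be induced to mature toward red cells in culture. Polyadenylated RNA was sequenced from 4 groups of 3 libraries, all from induced cells. The control group was wild-type MEL cells, and the knockdown group (KD) had reduced LDB1. The 2 remaining groups were knockdown cells given a further construct, either full-length LDB1 (FL) or the form named LDB1 delta 4/5 (delta45). A gene was taken when all 9 derived libraries lay above all 3 control libraries, or all 9 lay below them, in CPM, the reads of a gene scaled to all gene reads of its library. This held for 3258 of the 37991 genes in each file, 1203 of them higher and 2055 lower in the derived lines. Of the 37991 genes, 20281 had a read in any library, so the genes taken were 16.1% of those detected.

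LDB1 has no DNA-binding domain of its own. It binds LIM-domain proteins such as LMO2 and, through them, the transcription factors GATA1 and TAL1, and it can bind a second LDB1 molecule. In red cell precursors this lets enhancers and promoters that hold the complex come together, as at the beta-globin locus. The genes chosen here are those for which neither full-length LDB1 nor the delta45 form left the derived cells on or across the control level. The derived lines shared the knockdown and whatever handling it needed, and these cannot be told apart from each other in this design. Whether a derived line was 1 clone is not given in the sources used here, nor whether replicate libraries were grown apart. The p-values below can therefore speak only for the scatter among these libraries, some of it possibly technical.

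The choice used the comparison of control with derived cells, so the levels and folds of the chosen genes are a description and carry no test against control. The choice treated the 9 derived libraries alike, whichever line they came from. It left out genes whose derived libraries reached control or lay on both sides of it, so it limited how far the derived lines could differ. Tests among the derived lines ran over all tested genes, and their counts over the chosen genes are a description within that limit. Levels are CPM per library without further scaling, and group values are mean ± SD over 3 libraries.

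Gene reads ranged from 8783970 to 20464959 per library. Reads aligned to several places took 50.6 to 53.31% of the tallied reads in the control libraries and 38.69 to 48.51% in the derived ones, with means of 51.95 and 42.97% (exact two-sided permutation test over 220 splits, p = 0.009091). The test shuffled single libraries and took no account of the derived lines. The share of such reads moved with the choice itself, and its part in the results was not tested. Ldb1 followed the labels. It stood at 756, 791 and 649.7 CPM in control, 177, 139 and 97.2 CPM in KD, 782, 835 and 816 CPM in delta45 and 3216, 3000 and 2814 CPM in FL. The derived lines thus lay on both sides of control for Ldb1 itself, and reads of a construct and of the endogenous gene are counted as one. Erythroid marker genes were present in every group. Gata1, the erythroid master transcription factor, was at 867, 888 and 778 CPM in control and between 485 and 952 CPM in the derived libraries. Hba-a1, an adult alpha-globin gene whose reads cannot be told with certainty from those of its near copy, was at 5094, 4778 and 4762 CPM in control and between 656 and 9399 CPM in the derived libraries. Hbb-bs, Alas2, Klf1 and Epor also had derived libraries within or on both sides of the control range. The band 3 anion exchanger gene Slc4a1, another erythroid marker, was among the genes taken.

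Most of the chosen genes differed modestly and a minority differed by a wide margin. The median ratio of the larger to the smaller group mean was 1.91 for the 1203 higher genes and 2.56 for the 2055 lower genes. At 5 CPM or more on the higher side there were 2544 genes, 1071 higher and 1473 lower. The gap, meaning the ratio between the nearest control and derived libraries, was at least 4-fold for 146 of these, 32 higher and 114 lower. In computing a gap, each level was raised to at least what 3 reads were worth in its library. A filter on low counts (filterByExpr) kept 12837 genes. It kept 2929 of the chosen genes, 1177 higher and 1752 lower, and left out 329. Among the genes kept, the choice held for 22.8%, with 9.17% higher and 13.6% lower. Lower genes were thus the larger part, also among those with a wide gap. The number moved with the lines held to the rule. Without the delta45 line it would be 1502 higher and 2517 lower, without the KD line 2298 higher and 3951 lower, and without the FL line 2433 higher and 2405 lower.

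**Figure D1:**
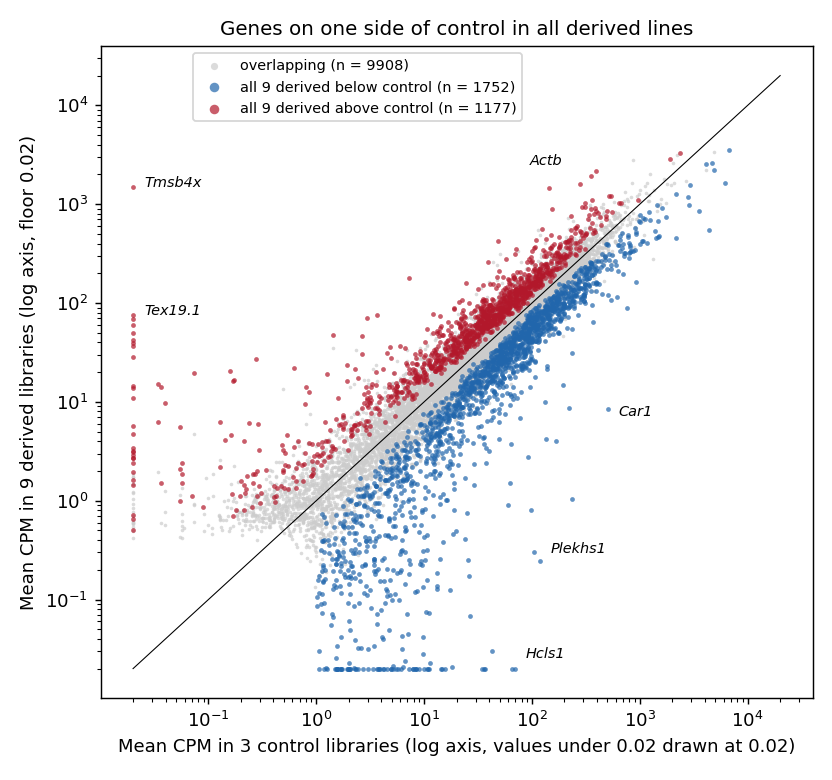
Mean CPM of each of the 12837 tested genes in the 3 control libraries (horizontal, log axis) and the 9 derived libraries (vertical, log axis), with genes in which all 9 derived libraries lay above control in red (1177) and below control in blue (1752). Tmsb4x and Tex19.1 sit at the left edge with almost no control reads, and Hcls1 sits at the bottom edge with none in the derived lines.

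At the edge of the rule, Egln3 was the named gene with the smallest gap just inside it and Ccdc32 the gene just outside it. Egln3, which encodes an oxygen-dependent prolyl hydroxylase, had 0 CPM in every library of control, 51.98, 91.2 and 60.7 CPM in KD, 0.147, 0.137 and 0.0808 CPM in delta45 and 138, 142 and 139 CPM in FL. The delta45 values rest on few reads, so on the floor of 3 reads this gene would not be separated. Ccdc32, a coiled-coil gene, had 38.1, 38.2 and 44.05 CPM in control, and its lowest derived library, in FL, stood at 44.0 CPM, level with the highest control library.

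Of the chosen genes, 11 without a control read reached 5 CPM in the derived lines, and 13 had the reverse. Tmsb4x (ENSMUSG00000049775) had by far the highest derived level of the first kind. It encodes thymosin beta 4, a small peptide that holds actin monomers in reserve. It had 0 CPM in every library of control, 813, 399.7 and 501 CPM in KD, 193, 186 and 196 CPM in delta45 and 3529, 3749 and 3994 CPM in FL. Every derived library held it at over 180 CPM and no control library held a read. Against 3 reads over the control group, the derived mean was at least 17880-fold higher, a bound that covers counting error only. Prps2, which encodes an enzyme that makes PRPP for nucleotide synthesis, is a close neighbour of Tmsb4x in gene order. It had 0 CPM in every library of control, 47.2, 25.7 and 24.03 CPM in KD, 72.8, 70.8 and 69.9 CPM in delta45 and 14.1, 12.8 and 15.6 CPM in FL, at least 465-fold higher over the derived libraries. With Tceanc they formed a run of 3 consecutive tested genes, all higher in all derived libraries.

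The promoter windows of these neighbours are shown because both genes had no read in control yet differ in CpG content. Each window holds the 250 bases before the gene's start, 5′ to 3′ on the gene's strand, from RefSeq on GRCm38.p6, with CpG dinucleotides in capitals. The Tmsb4x window held 15 CpG (observed over expected 0.953) and the Prps2 window 4 (0.187).
Tmsb4x, chrX:167209219-167209468, minus strand: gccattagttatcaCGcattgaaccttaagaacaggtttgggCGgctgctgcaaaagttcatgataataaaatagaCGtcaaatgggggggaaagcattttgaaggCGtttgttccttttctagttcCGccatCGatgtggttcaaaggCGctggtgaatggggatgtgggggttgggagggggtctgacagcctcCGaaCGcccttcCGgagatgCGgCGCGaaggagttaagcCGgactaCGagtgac
Prps2, chrX:167382750-167382999, minus strand: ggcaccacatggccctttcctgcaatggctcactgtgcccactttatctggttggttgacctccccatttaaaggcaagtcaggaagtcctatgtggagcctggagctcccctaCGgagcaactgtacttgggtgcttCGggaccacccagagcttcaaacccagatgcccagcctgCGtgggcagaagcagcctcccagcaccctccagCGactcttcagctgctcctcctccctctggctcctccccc

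Among the other genes with the widest gaps upward, Tex19.1, Zcchc3, Slc44a4 and Galk2 were each at or near 0 in control. Tex19.1, a gene of the germline and placenta, had 0, 0 and 0.0599 CPM in control, 88.1, 80.5 and 104 CPM in KD, 81.1, 85.6 and 84.3 CPM in delta45 and 49.2, 53.9 and 57.4 CPM in FL. Across the control libraries 1 read was counted, which gives a ratio of pooled reads of 2703 (95% exact interval 485 to 106800, counting error only). Zcchc3, which encodes a nucleic acid binding zinc finger protein, had 0 CPM in every library of control, 33.1, 47.2 and 28.5 CPM in KD, 42.6, 54.7 and 55.4 CPM in delta45 and 34.98, 44.3 and 37.1 CPM in FL. Over the derived libraries Tex19.1 ran from 49.2 to 104 CPM, lowest in FL, and Zcchc3 from 28.5 to 55.4 CPM. Both stood far from control.

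Slc44a4, a choline transporter-like gene, had 0, 0 and 0.0599 CPM in control, 17.3, 22.2 and 24.7 CPM in KD, 26.1, 28.6 and 30.1 CPM in delta45 and 104, 92.8 and 98.5 CPM in FL. It was highest in FL (FL minus KD log2 2.46 ± 0.16 (SE), adjusted p = 8.64e-08 by edgeR's quasi-likelihood test). In CPM, every delta45 library of Slc44a4 lay slightly above every KD library. Galk2, which encodes N-acetylgalactosamine kinase, had 0.327, 0 and 0.180 CPM in control, 17.1, 16.1 and 19.6 CPM in KD, 14.7, 15.4 and 17.4 CPM in delta45 and 13.9, 15.8 and 15.9 CPM in FL. Its derived mean was 95.96-fold above the control mean, and no difference among the derived lines was called (edgeR adjusted p = 0.544).

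Mmp14, Cmpk2, Cx3cl1, Scn2b, Npdc1 and Ccdc92b completed the 12 widest gaps upward. Mmp14, a membrane-bound matrix metalloproteinase gene, had 0 CPM in every library of control, 76.5, 62.8 and 45.9 CPM in KD, 10.4, 10.9 and 11.2 CPM in delta45 and 42.05, 34.2 and 39.5 CPM in FL. Cmpk2, a mitochondrial nucleotide kinase gene, had 0 CPM in every library of control and 13.3, 147 and 309.9 CPM in KD, and between 8.68 and 15.8 CPM in delta45 and FL. The KD libraries of Cmpk2 were far apart, so its KD mean rests on 2 libraries. Cx3cl1, the gene of the chemokine fractalkine, stood at 0.273 ± 0.153 CPM in control, 27.1 ± 3.67 CPM in KD, 10.7 ± 0.580 CPM in delta45 and 42.8 ± 1.09 CPM in FL. Scn2b, a sodium channel beta subunit gene, stood at 0.171 ± 0.296 CPM, 16.1 ± 3.72 CPM, 18.9 ± 1.58 CPM and 14.4 ± 2.94 CPM in the same order. As the rule requires, none of these overlapped control in any derived library.

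The abundant genes among the higher set included Actb, the gene of cytoplasmic beta-actin. Actb had 315, 361 and 376 CPM in control, 1647, 1735 and 2019 CPM in KD, 1862, 1702 and 1718 CPM in delta45 and 2527, 2002 and 2135 CPM in FL. The derived mean was 5.50-fold the control mean, and the control libraries lay far below every derived one. Of the 31-base words in its transcript, 35.2% also occur in other transcripts, while Tmsb4x shared 0%. Reads aligned to several places were counted to no gene, so the level of Actb may miss reads. How far this bears on its fold was not tested. Pfn1, the gene of the actin monomer binding protein profilin 1, had 510.2, 552 and 502 CPM in control and 1211 ± 188 CPM over the 9 derived libraries.

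Downward, the widest gap belonged to Plekhs1, which encodes a pleckstrin homology domain protein. It had 121, 113 and 119.7 CPM in control, 0.310, 0.114 and 0.263 CPM in KD, 0.147, 0.478 and 0.0808 CPM in delta45 and 0.272, 0.409 and 0.155 CPM in FL. Every derived library was below 0.5 CPM, and the control mean was 475-fold the derived mean. Hcls1 (ENSMUSG00000022831), the gene of a cortactin-like protein of blood cells that acts in antigen receptor signalling, had 69.2, 73.5 and 66.3 CPM in control and 0 reads in all 9 derived libraries. The control mean was at least 2804-fold the level of 3 reads over the derived group. Syk (ENSMUSG00000021457), a tyrosine kinase gene of the same signalling, had 32.1, 33.8 and 37.04 CPM in control and 0 reads in the derived libraries, at least 1380-fold lower there. Cdh19, a cadherin gene, had 52.2, 56.1 and 87.6 CPM in control and again 0 reads in all 9 derived libraries. These 3 genes were therefore detected in each control library and in no derived library.

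Mbd1, which encodes a protein that binds methylated CpG, had 39.3, 35.4 and 35.8 CPM in control. Only KD replicate 1 among the derived libraries held any Mbd1 read, at 0.155 CPM, and the ratio of pooled reads was 2210 (95% exact interval 610.7 to 18270). Itgal, the alpha subunit gene of the leukocyte integrin LFA-1, had 98.8, 96.7 and 96.9 CPM in control, 1.01, 0.911 and 0.351 CPM in KD, 0.733, 0.751 and 1.37 CPM in delta45 and 0.906, 0.818 and 0.361 CPM in FL. Its control libraries agreed within a few CPM and all derived libraries were under 1.4 CPM. Qrich2, a gene of the sperm flagellum, had 107, 104 and 99.01 CPM in control and 0.0489 to 0.722 CPM over the derived libraries. Slc25a45, Cttnbp2, Zfp783 and Dnah8 also lay among the 12 widest gaps downward, with control means of 42.4, 26.5, 18.1 and 25.5 CPM and no derived library above 0.49 CPM.

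**Figure D2:**
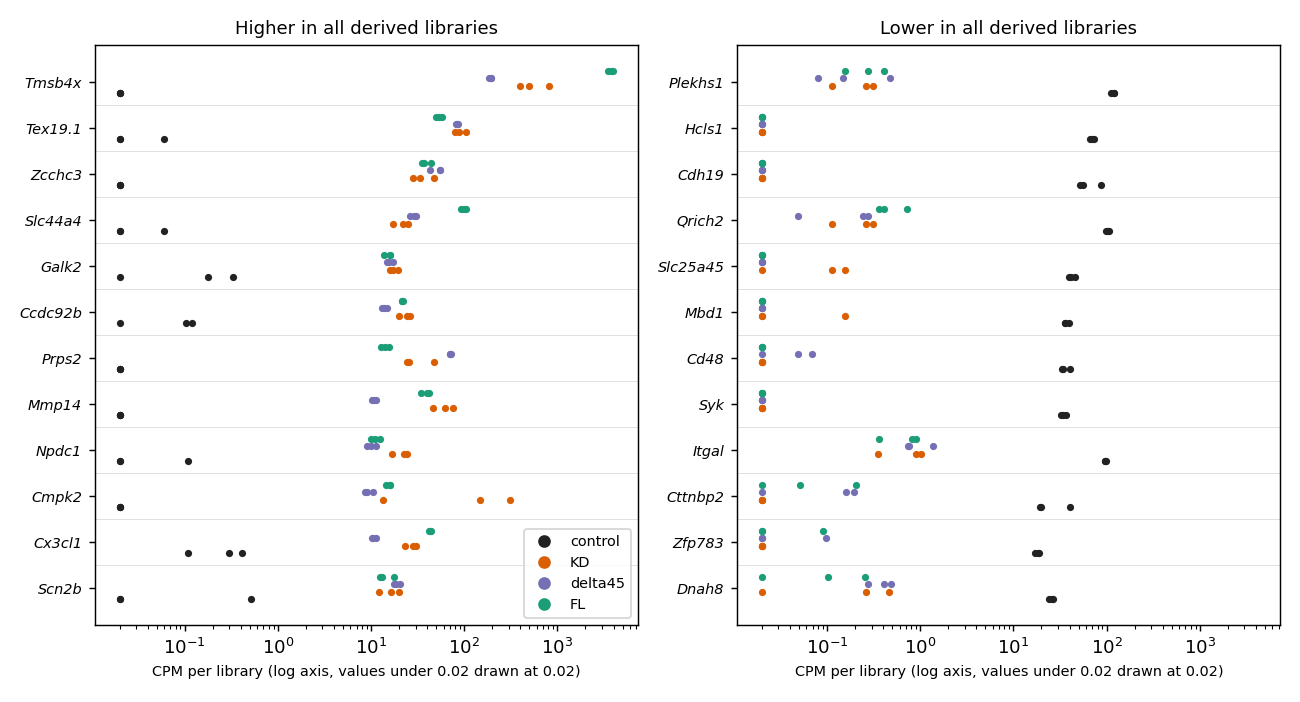
CPM in each library (log axis, levels under 0.02 drawn at 0.02) for the 12 genes with the widest gap upward (left) and downward (right), 1 point per library and 1 colour per group. As the rule requires, the 3 control points of every gene stand apart from all 9 derived points. The derived groups differ from each other for some genes, such as Tmsb4x and Slc44a4.

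Members of the SLAM family, receptors on blood cells that bind each other between cells, were low in the derived lines as a set of neighbours. All 4 tested genes of a list of SLAM receptors and adaptors lay below control in all derived libraries and were called lower. Of the 11 list genes in the files, 5 had no reads anywhere. This list was made with that result known, so its count is no independent evidence. Cd48 had 33.9, 33.1 and 40.9 CPM in control, 2 reads in all in delta45 and none in KD or FL, a ratio of pooled reads of 2232 (95% exact interval 616.8 to 18450). Slamf1 had 35.5, 33.6 and 44.05 CPM in control, 0.621, 0.342 and 0.0877 CPM in KD, 1.56, 1.84 and 1.62 CPM in delta45 and 4.35, 4.40 and 7.02 CPM in FL. Cd84 had 7.53, 8.01 and 11.8 CPM in control and 0 to 0.646 CPM in the derived libraries.

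The derived lines differed from each other within this low range. Slamf1 was higher in FL than in KD (log2 4.13 ± 0.38 (SE), adjusted p = 1.4e-06, edgeR) and higher in FL than in delta45 (log2 1.95 ± 0.28 (SE), adjusted p = 6.34e-05, edgeR). Ly9 had 5.13, 8.11 and 8.45 CPM in control, 0.684, 0.478 and 0.485 CPM in delta45 and no read in KD or FL. In gene order Ly9 and Cd48 were neighbours, and Slamf1 and Cd84 fell in another run of 3.

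The promoter windows of 3 of these genes are shown because all were poor in CpG, with 3 to 4 per window. They are again the 250 bases before the start on the gene's strand, from RefSeq on GRCm38.p6, with CpG in capitals.
Cd48, chr1:171681742-171681991, plus strand: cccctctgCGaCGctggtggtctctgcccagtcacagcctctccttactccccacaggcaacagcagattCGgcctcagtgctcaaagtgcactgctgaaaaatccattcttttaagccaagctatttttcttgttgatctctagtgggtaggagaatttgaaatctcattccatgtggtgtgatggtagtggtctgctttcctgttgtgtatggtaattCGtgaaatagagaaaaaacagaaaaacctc
Slamf1, chr1:171766882-171767131, plus strand: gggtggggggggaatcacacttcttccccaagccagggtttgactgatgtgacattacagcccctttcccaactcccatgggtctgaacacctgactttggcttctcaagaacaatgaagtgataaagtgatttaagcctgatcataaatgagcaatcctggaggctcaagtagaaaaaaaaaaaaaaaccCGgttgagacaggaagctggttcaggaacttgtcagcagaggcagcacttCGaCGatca
Cd84, chr1:171839447-171839696, plus strand: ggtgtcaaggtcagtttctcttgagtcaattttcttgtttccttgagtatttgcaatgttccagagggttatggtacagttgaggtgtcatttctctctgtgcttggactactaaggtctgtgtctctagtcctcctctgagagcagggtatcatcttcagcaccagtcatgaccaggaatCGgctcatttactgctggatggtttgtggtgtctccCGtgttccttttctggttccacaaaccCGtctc

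The genes taken were next described by function. Across 29 lists, 1145 of 1164 entries were in the files. Calls in these lists come from the edgeR fit at a Benjamini-Hochberg adjusted p under 0.05. They compare the mean of the fitted log2 levels of the 3 derived lines with control. That mean can go the other way from mean CPM. Alas2, at 1785 CPM over the derived libraries and 1665 CPM in control, had a fitted log2 change of -0.83. Of all 12837 tested genes, 58.9% were called, 28.0% higher and 31.0% lower, with a median log2 change of -0.003. Since the genes were chosen on this comparison, nothing is read from the agreement of list calls with the choice. Genes of low level passed the filter through the group where they were high. All 9 derived libraries lay above control for 9.17% of all tested genes and below it for 13.6%. Counts of chosen genes per list may include genes that were not tested.

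Genes of the red cell program were mixed. Of 7 tested globin genes, 0 were called higher and 6 lower (median log2 -1.16). Yet only the embryonic Hba-x, a scarce gene, lay below control in every derived library. The summed globin level was 8220 to 8420 CPM in control and 1140 to 23000 CPM in the derived libraries, on both sides of control. Of 15 heme synthesis genes, 7 were called higher and 5 lower (median 0.39). Without control replicate 1 the number called higher was 4. Uros, which encodes a mid-pathway enzyme, had 12.8, 13.4 and 15.8 CPM in control, 32.6, 53.7 and 72.3 CPM in KD, 79.99, 81.97 and 78.6 CPM in delta45 and 30.8, 32.9 and 37.9 CPM in FL. Ppox, which encodes the next to last enzyme, had 258, 267 and 232 CPM in control, 59.3, 77.98 and 59.5 CPM in KD, 78.2, 86.8 and 89.2 CPM in delta45 and 152, 160.2 and 164 CPM in FL. Uros and Ppox thus lay on opposite sides of control in all 9 libraries. The list held 4 chosen genes, 2 higher and 2 lower, with Abcb6 also above control and Abcb10 also below.

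Of 23 red cell membrane and skeleton genes, 5 were called higher and 11 lower (median -0.12). Add1 lay above control in all derived libraries, and Add2, Slc4a1, Kel, Aqp1 and Tspan33 below. Add2, the beta-adducin gene, had 233, 249 and 218 CPM in control, 23.97, 62.96 and 50.5 CPM in KD, 27.5, 24.1 and 23.8 CPM in delta45 and 88.5, 95.9 and 92.5 CPM in FL. Slc4a1 had 44.1, 71.5 and 60.7 CPM in control, 1.63, 8.20 and 13.4 CPM in KD, 2.15, 1.91 and 2.26 CPM in delta45 and 26.8, 26.4 and 26.9 CPM in FL. By group mean, both were nearest to control in FL and farthest in delta45. The KD libraries were scattered, and KD replicate 1 lay within the delta45 range for Add2 and below it for Slc4a1. Outside the list, Car1, a carbonic anhydrase gene of red cells, had 525, 419 and 572 CPM in control, 3.18, 2.16 and 3.25 CPM in KD, 23.4, 23.1 and 21.2 CPM in delta45 and 0.181, 0.204 and 0.361 CPM in FL. Here the order was the reverse, with delta45 nearest to control and FL farthest (FL minus delta45 log2 -6.06 ± 0.25 (SE), adjusted p = 1.6e-09, edgeR).

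Among 37 tested erythroid factors and LDB1 partners, 15 were called higher and 8 lower (median 0.16). The number called higher was 9 without control replicate 1, and the number called lower was 5 without control replicate 2. Gata2, Tal1 and Lmo2 lay above control in every derived library, and Lmo4, Spi1 and Bach1 below. Gata2, a progenitor-stage GATA factor, had 13.1, 13.96 and 12.3 CPM in control, 59.1, 72.4 and 54.02 CPM in KD, 32.7, 38.9 and 32.96 CPM in delta45 and 50.1, 54.8 and 49.4 CPM in FL. Its level in delta45 was lower than in KD (log2 -0.83 ± 0.12 (SE), adjusted p = 0.000104, edgeR), while no difference between FL and KD was called (log2 0.00 ± 0.12 (SE), adjusted p = 0.994, edgeR). Tal1 had 537 ± 43.5 CPM in control, 1235 ± 373 CPM in KD, 800.4 ± 7.05 CPM in delta45 and 1582 ± 35.8 CPM in FL. Lmo2, the LIM protein that bridges LDB1 to TAL1, had 51.7, 50.9 and 54.4 CPM in control and 69.5 to 114 CPM over the derived libraries. As chosen genes, Tal1, Lmo2 and Gata2 were above control in all derived lines by the rule. Spi1, the gene of the myeloid factor PU.1, had 58.4, 63.97 and 48.4 CPM in control, 31.4, 29.3 and 24.7 CPM in KD, 2.49, 3.76 and 3.23 CPM in delta45 and 10.2, 12.9 and 11.4 CPM in FL.

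Markers of other blood cells and of stroma were also examined. Of 12 tested myeloid markers, 1 was called higher and 10 lower (median -2.54), and of all 37 in the files 2 lay above and 10 below control in every derived library. The number called higher was 2 without any 1 library other than KD replicate 1 or 2. The summed level of the myeloid list was 299 to 382 CPM in control and 41.2 to 268 CPM in the derived libraries. Ncf4, an NADPH oxidase subunit gene, had 89.3, 99.4 and 90.3 CPM in control, 25.7, 27.8 and 29.1 CPM in KD, 5.52, 5.46 and 6.38 CPM in delta45 and 26.4, 30.7 and 32.7 CPM in FL. Fcgr1, an Fc receptor gene, had 9.49, 10.5 and 9.83 CPM in control and 0.162 to 1.09 CPM in the derived libraries. The part of other cells in these levels was not tested.

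Of 9 lymphoid markers, 1 was called higher and 5 lower (median -1.21), and Thy1, a T cell surface glycoprotein gene, had 10.6, 11.9 and 11.5 CPM in control and 3 reads over the derived libraries. The summed lymphoid level was 57.1 to 61.4 CPM in control and 12.9 to 84.1 CPM in the derived libraries. Of 16 megakaryocyte and platelet markers, 4 were called higher and 6 lower (median -0.16), with summed levels of 2110 to 2380 CPM in control and 873 to 7470 CPM in the derived libraries. Gp1ba, a platelet glycoprotein gene, had 17.3, 17.04 and 21.9 CPM in control, 42.9, 58.9 and 65.6 CPM in KD, 47.2, 47.8 and 46.6 CPM in delta45 and 180, 144 and 166 CPM in FL, and Gp5 also lay above. Tubb1, the platelet beta-tubulin gene, lay below, with 10.03, 8.73 and 9.53 CPM in control and 0 to 0.776 CPM in the derived libraries. Platelet genes were therefore found on both sides.

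For mast and basophil markers the counts were 1 higher and 6 lower of 9 (median -0.76), with summed levels of 149 to 193 CPM in control and 136 to 278 CPM in derived libraries. For stromal and endothelial markers they were 2 higher and 6 lower of 9 (median -0.68), with sums of 53.1 to 61.9 and 19.8 to 86.3 CPM. The number called higher was 2 for mast and basophil markers without control replicate 3, and 1 for stromal markers without control replicate 2 or 3. The stem and progenitor list had 4 higher and 4 lower of 10 (median -0.02).

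Signalling and surface genes included several of the widest gaps. Of 32 tested genes of immune receptor signalling, 9 were called higher and 13 lower (median -0.10). Of all 51 in the files, Vav2, Dapp1 and Lat lay above control in all derived libraries, and Hcls1, Syk, Lcp2, Arhgdib, Tyrobp and Blnk below. Lcp2, the SLP-76 adaptor gene, had 8.73, 8.83 and 11.7 CPM in control and 0 to 1.16 CPM in derived libraries. Lat, another adaptor gene, had 1.31, 2.88 and 3.12 CPM in control, 30.02, 26.98 and 22.01 CPM in KD, 17.5, 20.4 and 13.9 CPM in delta45 and 6.89, 8.69 and 9.49 CPM in FL. Partner adaptors of 1 pathway thus lay on opposite sides of control.

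Of 42 cytokine and growth factor receptor genes, 8 were called higher and 21 lower (median -0.47). Of all 74 list genes in the files, 12 lay below control in every derived library and 0 above. Leaving out control replicates 1, 2 or 3 left 3, 3 and 4 called higher. Il2rg, the gene of the common gamma chain, had 25.2, 29.6 and 32.7 CPM in control, 0.931, 0.911 and 1.05 CPM in KD, 3.27, 2.87 and 2.10 CPM in delta45 and 0.362, 0.511 and 0.877 CPM in FL. Il6ra and Il1r1, receptor genes for interleukins 6 and 1, stood at 16.9 ± 2.24 CPM and 13.4 ± 0.941 CPM in control and at 4.66 ± 3.70 CPM and 4.08 ± 2.26 CPM over the derived libraries.

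Of 32 tested cadherins, integrins and adhesion genes, 7 were called higher and 15 lower (median -0.27). Of all 64 in the files, 4 lay above and 7 below control in all derived libraries. F11r, a junctional adhesion molecule gene, had 4.69, 5.13 and 4.55 CPM in control, 28.3, 27.1 and 31.4 CPM in KD, 19.7, 21.5 and 22.6 CPM in delta45 and 59.00, 59.6 and 56.5 CPM in FL. Of 25 matrix and protease genes, 5 were called higher and 14 lower (median -0.81). Without control replicate 1 or 2 the number called higher was 3. Col18a1, a collagen gene, had 2.94, 4.83 and 3.12 CPM in control, 133, 137 and 106 CPM in KD, 35.3, 46.9 and 42.3 CPM in delta45 and 59.5, 67.9 and 60.4 CPM in FL. It lay far above control in every derived library, as did Mmp14, while Col4a2 lay below, with 10.5 ± 1.16 CPM in control and 1.78 ± 1.63 CPM in derived libraries. Of 62 actin binding and motility genes, 23 were called higher and 20 lower (median 0.13), with 7 above and 8 below in all derived libraries. Avil, an actin-severing villin family gene, had 183, 189.8 and 158 CPM in control, 86.97, 72.9 and 50.5 CPM in KD, 52.3, 60.2 and 58.6 CPM in delta45 and 22.2, 21.98 and 22.8 CPM in FL.

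Of 38 tested Wnt, Notch and TGF beta pathway genes, 13 were called higher and 9 lower (median 0.01). Of all 69 in the files, 5 lay above and 4 below control in all derived libraries. Notch3, a Notch receptor gene, had 1.85, 2.05 and 1.92 CPM in control, 5.12, 4.10 and 2.72 CPM in KD, 50.1, 51.2 and 47.5 CPM in delta45 and 25.01, 14.6 and 11.4 CPM in FL. Its KD libraries lay just above control and its delta45 libraries far above. Smad1, a gene of BMP signalling, had 3.03 ± 0.940 CPM in control and 12.5 ± 3.79 CPM in the derived libraries.

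Genes of glycolysis and of detoxification were called lower more often than higher. Of 40 tested oxygen sensing and glycolysis genes, 6 were called higher and 27 lower (median -0.74), and 11 lay below control in all derived libraries with Egln3 alone above. Gpi1, the glycolytic glucose phosphate isomerase gene, had 884, 874 and 749.8 CPM in control, 446, 518 and 457 CPM in KD, 104, 112 and 125 CPM in delta45 and 393, 411 and 444 CPM in FL. Eno2, an enolase gene, had 317, 346 and 250.4 CPM in control, 153, 175 and 127 CPM in KD, 27.4, 28.6 and 33.9 CPM in delta45 and 132, 126 and 134 CPM in FL. In both, the delta45 libraries lay lowest, well below KD (Gpi1 delta45 minus KD log2 -2.07 ± 0.12 (SE), adjusted p = 4.49e-08, edgeR). Of 54 tested drug transport and detoxification genes, 12 were called higher and 28 lower (median -0.37). Of all 67 in the files, 4 lay above and 15 below control in all derived libraries. Gstk1, a mitochondrial and peroxisomal glutathione transferase gene, had 16.8, 14.1 and 15.8 CPM in control and 0 reads in the derived libraries, at least 626-fold lower there.

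Of 33 purine, pyrimidine and PRPP genes, 13 were called higher and 6 lower (median 0.10). Pfas, Prps2 and Ppat, which act in making purines afresh, lay above control in every derived library. Aprt, which salvages adenine, and Impdh1, which commits IMP to guanine nucleotides, lay below. Aprt had 709, 639 and 484 CPM in control, 125, 152 and 130 CPM in KD, 113, 153 and 149.8 CPM in delta45 and 56.2, 87.01 and 80.3 CPM in FL. Pfas had 31.4, 30.6 and 30.99 CPM in control, 88.4, 68.2 and 36.7 CPM in KD, 161, 168 and 164 CPM in delta45 and 58.3, 49.4 and 49.2 CPM in FL. All 3 control libraries of Aprt were above 480 CPM and every derived library was below 160 CPM.

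The calls in 2 lists of growth genes went mostly in opposite directions. Of 30 tested ribosome biogenesis and MYC target genes, 21 were called higher and 0 lower (median 0.58), and 7 lay above control in all derived libraries. With 0 called lower, leaving out KD replicate 3 gave 1. The summed level of this list was 3110 to 3810 CPM in control and 4060 to 8910 CPM in the derived libraries. Nop56, a nucleolar gene, had 60.5, 65.9 and 58.9 CPM in control, 118, 111 and 118 CPM in KD, 279, 268 and 263 CPM in delta45 and 96.2, 96.4 and 102 CPM in FL. Polr1b, an RNA polymerase I subunit gene, had 13.7, 14.3 and 14.5 CPM in control, 43.3, 42.4 and 32.8 CPM in KD, 146, 148 and 144 CPM in delta45 and 35.5, 34.1 and 36.7 CPM in FL. Delta45 was highest for both, and KD and FL were close to each other (Polr1b FL minus KD log2 0.12 ± 0.10 (SE), adjusted p = 0.334, edgeR).

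Of 40 DNA replication and mitosis genes, 8 were called higher and 22 lower (median -0.56), with Pcna above and 10 below control in all derived libraries. Without control replicate 1 or 2 the number called higher was 5. The summed level of this list was 6800 to 7310 CPM in control and 1560 to 10100 CPM in the derived libraries, on both sides of control. Cenpa, the centromeric histone gene, had 519.7, 491 and 494 CPM in control, 175, 172 and 161 CPM in KD, 84.2, 105 and 96.5 CPM in delta45 and 77.8, 108 and 98.1 CPM in FL. Plk1, a mitotic kinase gene, had 155, 149 and 136 CPM in control, 73.01, 70.2 and 65.3 CPM in KD, 85.6, 103 and 98.2 CPM in delta45 and 13.8, 16.7 and 17.9 CPM in FL. FL was lowest for Plk1 (FL minus KD log2 -1.84 ± 0.12 (SE), adjusted p = 6.79e-08, edgeR), whereas for Cenpa no difference between FL and delta45 was called (log2 0.27 ± 0.12 (SE), adjusted p = 0.075, edgeR). Of 35 cell cycle inhibitors and p53 targets, 13 were called higher and 9 lower (median 0.08). Bcl2l11, the gene of the death factor BIM, had 58.9, 55.03 and 56.6 CPM in control, 248, 194 and 170 CPM in KD, 245, 227 and 228 CPM in delta45 and 453, 374 and 368 CPM in FL. Cdkn1b, the p27 inhibitor gene, had 186, 193 and 243 CPM in control and 90.7 ± 29.8 CPM in the derived libraries, below control in each.

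Genes often kept silent by chromatin lay on both sides. Of 14 tested germline genes, 4 were called higher and 5 lower (median 0.29). Of all 48 in the files, Tex19.1 and Hormad2 lay above control in all derived libraries, and Brdt, Xlr3a, Pet2, Fkbp6 and Tex101 below. Without KD replicate 3 the number called higher was 7. Brdt, a testis bromodomain gene, had 58.7, 61.1 and 66.05 CPM in control, 29.4, 20.8 and 20.2 CPM in KD, 29.2, 25.2 and 28.3 CPM in delta45 and 1.27, 2.04 and 1.29 CPM in FL. Of 9 HOX genes, 5 were called higher and 3 lower (median 0.40). The number called lower was 5 without any 1 KD replicate or without FL replicate 2. Of all 38 HOX genes in the files, 2 lay above and 5 below control in every derived library. Hoxc6 had 14.1 ± 0.724 CPM in control and 40.6 ± 13.9 CPM in the derived libraries, and Hoxd8 5.42 ± 1.14 CPM and 0.903 ± 0.308 CPM. Of 23 tested imprinted genes, 4 were called higher and 9 lower (median -0.20). Of all 50 in the files, 1 lay above and 3 below control in every derived library. Impact, an imprinted gene, had 6.59 ± 2.38 CPM in control and 34.8 ± 22.2 CPM in the derived libraries. Of 38 DNA methylation and polycomb genes, 11 were called higher and 13 lower (median -0.08), and Mbd1, given above, had the widest gap.

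Interferon and antigen presentation genes were seldom among those chosen. Of 34 interferon response genes, 2 were called higher and 13 lower (median -0.97), but just Ifi27l2a lay below control in all derived libraries. Those counts moved with single libraries, with 0 higher without control replicate 1 or 2, 8 higher without KD replicate 1, and 6 lower without control replicate 2 or 3. Of 25 MHC class I and antigen presentation genes, 1 was called higher and 9 lower (median -0.52). Without KD replicate 1 the number higher was 6, and without KD replicate 3 the number lower was 14.

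**Figure D3:**
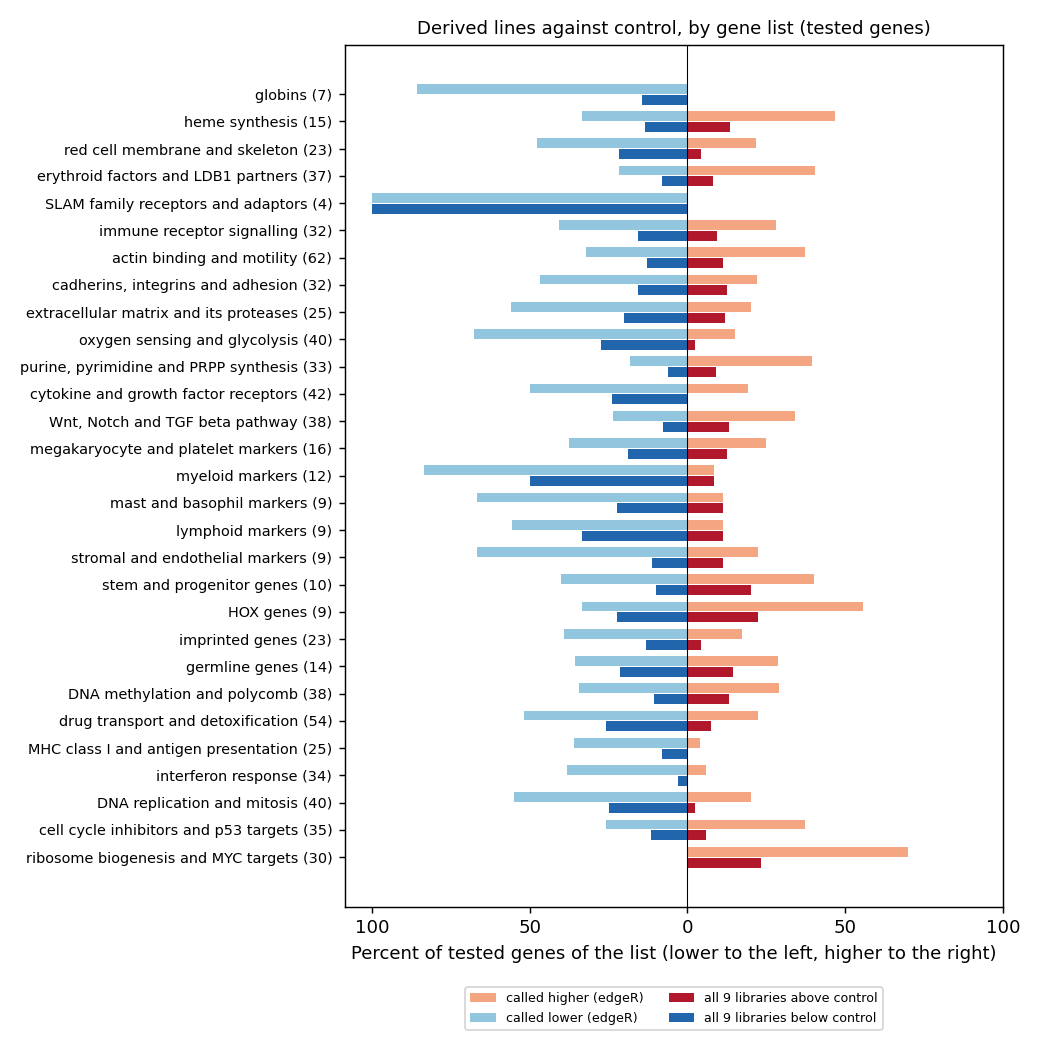
Pale bars give the percent of the tested genes of each list (number in brackets) that edgeR called higher or lower against control. Calls use the mean log2 level of the derived lines. Dark bars give the percent of the same genes with all 9 derived libraries above or below control. The SLAM list has all 4 tested genes on the low side in both measures, and ribosome biogenesis has 21 of 30 called higher and 0 lower.

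The derived lines were then compared with each other, within the limit that the choice sets. In a joint test of KD, delta45 and FL, 2070 of the 2929 tested chosen genes were called (70.7%, edgeR, Benjamini-Hochberg adjusted p under 0.05), beside 78.9% of all tested genes and 81.3% of the 9908 tested genes that were not chosen. By direction the counts were 816 of 1177 higher genes (69.3%) and 1254 of 1752 lower genes (71.6%). At 5 CPM or more, 1002 of 2544 chosen genes had derived group means within 1.5-fold of each other, 531 higher and 471 lower. That is 39.4%, beside 28% of all 10747 genes at that level. For 312 the derived means were more than 4-fold apart (12.3%, beside 12.7% of all), 38 higher and 274 lower. A lower gene reached 5 CPM through control alone, and ratios between derived means near 0 are large. With 5 CPM or more in the derived mean, 118 of 1171 lower genes were more than 4-fold apart (10.1%), beside 11% of all.

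Cells given full-length LDB1 were set against knockdown cells first. Since the rule holds FL below control for the lower genes, a gene back at control in FL could not be among them, and the counts do not bear on how many genes full-length LDB1 returned to control. Of 1752 lower genes, 380 were called higher in FL than in KD (21.7%) and 502 lower (28.7%), beside 26.3 and 31.7% of all tested genes. The median log2 difference was -0.07, and -0.06 over all tested genes. Of the 1177 higher genes, 357 were higher in FL than in KD (30.3%) and 155 lower (13.2%), with a median of 0.13.

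The delta45 form was set against knockdown in the same way. Of the lower genes, 239 were called higher in delta45 than in KD (13.6%) and 669 lower (38.2%), with a median log2 difference of -0.28, beside 29.2 and 30.7% and a median of -0.01 over all tested genes. Between the constructs, 594 lower genes were higher in FL than in delta45 (33.9%) and 292 lower (16.7%), with a median of 0.21, beside 25.8 and 27.0% of all tested genes. In unscaled CPM at 5 or more, the lowest derived mean of a lower gene was in FL for 597, in delta45 for 589 and in KD for 287. Comparisons that involve FL turn on the scaling. The TMM factors were 0.8705 to 0.88 in FL and 1.002 to 1.114 in the other groups. With library totals only, the median over all tested genes moved from -0.06 to -0.33 for FL minus KD. Over all chosen genes, FL minus KD then gave 389 higher and 1073 lower instead of 737 and 657. FL minus delta45 gave 549 and 960 instead of 883 and 605, which turns the balance around.

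Some genes held nearly the same CPM in every derived line. Tollip, which encodes an adaptor of Toll-like receptor signalling, had 295, 281 and 274 CPM in control, 215, 210 and 219 CPM in KD, 217, 205 and 218 CPM in delta45 and 226, 213 and 212 CPM in FL. Dnajc7, a cochaperone gene, had 92.4, 84.3 and 93.3 CPM in control, 161, 168 and 224 CPM in KD, 194, 178 and 187 CPM in delta45 and 179, 176 and 187 CPM in FL. Ppp2cb, a catalytic subunit gene of protein phosphatase 2A, had 64.02 ± 3.79 CPM in control, 79.2 ± 0.624 CPM in KD, 77.7 ± 2.34 CPM in delta45 and 79.5 ± 3.74 CPM in FL. In CPM the derived means of these genes were within a few percent of each other, and their folds against control were 1.32, 2.04 and 1.23. After TMM scaling, which raises FL, Tollip was called higher in FL than in KD (log2 0.28 ± 0.09 (SE), adjusted p = 0.0174, edgeR).

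Other genes differed widely among the derived lines and still stayed on one side of control. Slc37a2, a sugar phosphate transporter gene, had 16.5 ± 1.86 CPM in control, 20.7 ± 2.12 CPM in KD, 36.4 ± 2.15 CPM in delta45 and 138 ± 19.9 CPM in FL, with FL above delta45 (log2 2.20 ± 0.13 (SE), adjusted p = 1.82e-08, edgeR). Mvb12b, a gene of endosomal sorting, had 76.9 ± 1.72 CPM in control and was highest in FL at 341 ± 10.4 CPM, with no difference called between delta45 and KD (log2 0.01 ± 0.08 (SE), adjusted p = 0.949, edgeR). C3, the complement gene, had 63.6, 63.97 and 62.3 CPM in control, 24.6, 27.7 and 19.4 CPM in KD, 0.244, 0.137 and 0.404 CPM in delta45 and 9.43, 8.79 and 11.9 CPM in FL. C3 was lowest in delta45 (delta45 minus KD log2 -6.50 ± 0.26 (SE), adjusted p = 3.14e-09, edgeR). Nsl1, a kinetochore gene, had 76.7, 72.9 and 75.6 CPM in control, 49.3, 50.8 and 43.7 CPM in KD, 57.02, 58.5 and 61.2 CPM in delta45 and 5.98, 6.24 and 6.45 CPM in FL, so FL lay apart from the rest (FL minus KD log2 -2.67 ± 0.10 (SE), adjusted p = 2.13e-09, edgeR). Tfr2, an iron sensor gene of red cell precursors, had 126 ± 7.95 CPM in control and stepped down from 99.1 ± 3.31 CPM in KD to 32.4 ± 3.07 CPM in delta45 and 15.6 ± 0.174 CPM in FL.

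**Figure D4:**
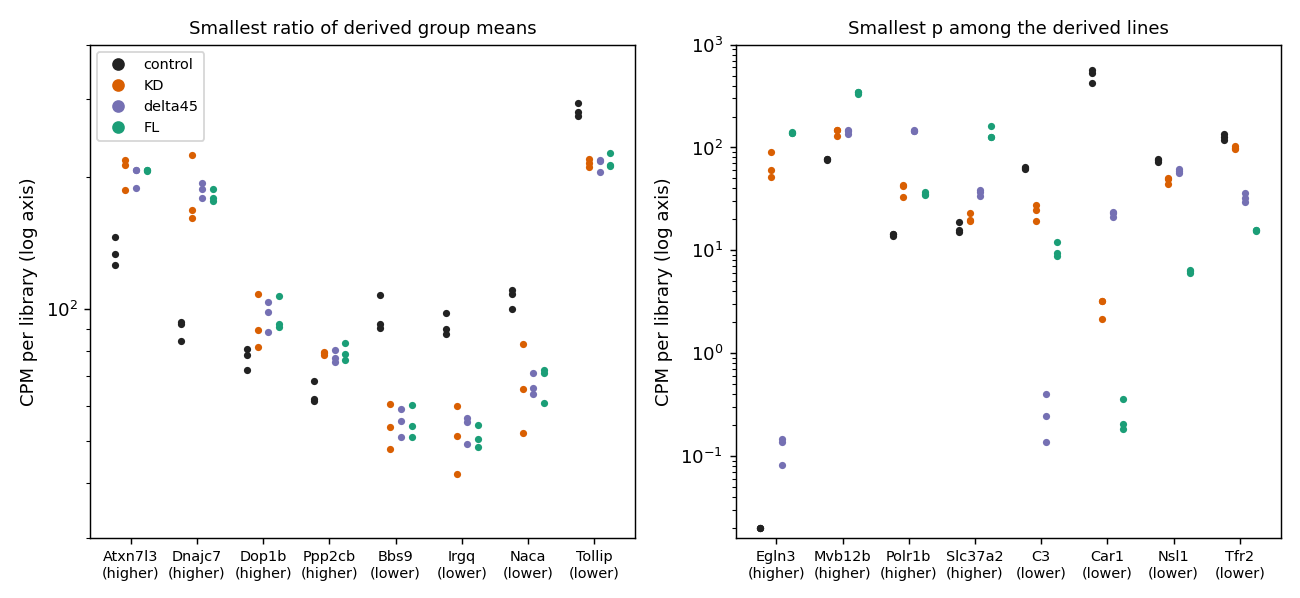
CPM per library (log axes) for the 8 chosen genes with the smallest ratio between derived group means (left) and the 8 with the smallest p among the derived lines (right), at 50 CPM or more on the higher side, with the side of control in brackets. On the left the 3 derived groups lie together, some close to control as for Dop1b, and on the right they are spread, as for C3 with delta45 lowest and Nsl1 with FL lowest.

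Chosen genes lay beside each other in gene order. Order was taken from the RefSeq annotation of GRCm38.p6, a later build than the authors' mm9, and is used here for neighbours alone. Of 1673 lower genes with a place, 585 (34.97%) had a lower gene as the nearest tested gene on at least 1 side, beside 24.92% of all 12110 placed genes. Of 1127 higher genes, 304 (26.97%) had a higher gene as such a neighbour, beside 17.36% of all placed genes. There were 287 runs of 2 genes, 67 of 3, 18 of 4, 2 of 5, 4 of 6 and 1 of 8. Neighbours can share reads where they overlap, because the library kit does not mark strand.

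The longest run held 8 lower genes, with Ssr4, Bcap31, Dusp9 and Plxnb3 among them. Ssr4, a subunit gene of the translocon-associated complex, had 326, 325 and 268 CPM in control, 112, 131 and 147 CPM in KD, 100.1, 112 and 113 CPM in delta45 and 64.98, 85.3 and 78.98 CPM in FL. Bcap31, the gene of an endoplasmic reticulum membrane protein, had 376 ± 9.19 CPM in control and 196 ± 52.9 CPM over the derived libraries. Dusp9, a MAP kinase phosphatase gene, had 17.6 ± 1.31 CPM in control and 2.33 ± 2.52 CPM over the derived libraries. By the rule these 3 genes and Plxnb3 lay below control in every derived library, and they ranged from scarce Plxnb3 to abundant Bcap31.

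Another run of 6 lower genes held Piezo1, Cdt1, Aprt, Galns, Trappc2l and Pabpn1l. Trappc2l, a vesicle tethering gene, had 149, 143 and 121 CPM in control, 20.9, 19.2 and 31.5 CPM in KD, 18.96, 22.3 and 18.6 CPM in delta45 and 22.8, 29.2 and 25.3 CPM in FL. Galns, a lysosomal sulfatase gene, had 97.4, 92.1 and 95.05 CPM in control, 22.5, 15.7 and 21.1 CPM in KD, 13.4, 13.5 and 18.6 CPM in delta45 and 6.53, 9.41 and 7.17 CPM in FL. Cdt1, a replication licensing gene, had 267, 251 and 212 CPM in control, 108, 112 and 96.6 CPM in KD, 138, 165 and 167 CPM in delta45 and 14.1, 17.1 and 18.7 CPM in FL. The derived levels of Trappc2l were alike in the 3 lines, while Cdt1 was lowest in FL.

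Windows of 25 consecutive tested genes were counted after these runs had been seen. Over 11626 windows the median was 3 lower and 2 higher genes and the 95th percentile was 8 lower and 6 higher. The window from Piezo1 to Def8 held 18 lower and 0 higher genes, with median log2 changes against control of -1.14 in KD, -0.96 in delta45 and -1.39 in FL. The 3 medians share the control libraries. Besides the run above, this window held a run of Acsf3, Ankrd11, Spg7, Rpl13, Cpne7 and Sult5a1. The window from Tmem185a to Ssr4 also held 18 lower and 0 higher genes, with medians of -0.96, -1.08 and -0.76. This window overlaps the run of 8 lower genes above, from Dusp9 to Ssr4. It includes Xlr3a, 1 gene of a family of near copies, so its own level is uncertain, which had 65.5, 57.1 and 63.4 CPM in control and 0.114 to 3.17 CPM in the derived libraries. Upward, the fullest window ran from Gsdmd to Scrt1 with 11 higher and 1 lower gene and medians of 0.62, 0.87 and 0.44. The number of gene copies was not measured here.

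**Figure D5:**
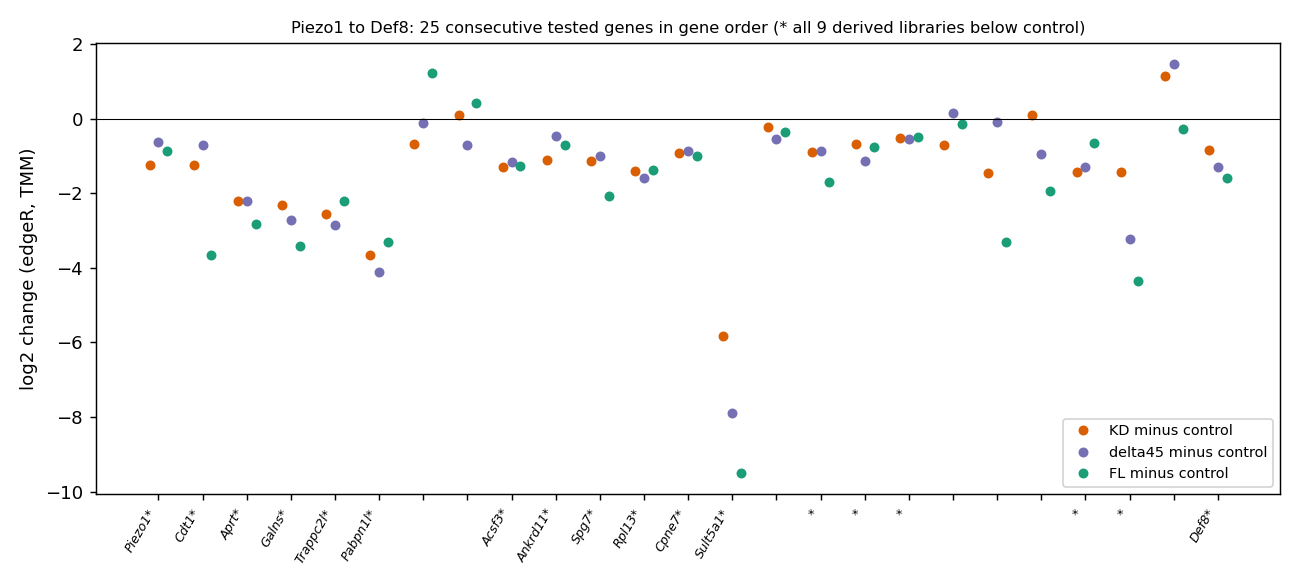
Fitted log2 change of each derived line against control (edgeR, TMM) for the 25 consecutive tested genes of the window from Piezo1 to Def8, in gene order without distances, with an asterisk at genes below control in all 9 derived libraries and symbols only for genes named in the text. The asterisk stands at 18 genes, and most points lie below 0. Sult5a1 had no read in FL, so its fitted value there depends on the prior count.

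Promoters of the chosen genes differed in CpG content by direction. The RefSeq windows of 250 bases before the start matched 9094 tested genes, of which 69.8% had an observed over expected CpG ratio above 0.6. The share was 76.3% of 887 higher genes and 57.8% of 1224 lower genes. Genes with a gap of at least 4-fold were low in both directions, with 8 of 28 higher genes (28.6%) and 20 of 83 lower genes (24.1%) above 0.6. To compare genes of like level, those at 5 to 50 CPM were taken. There the share was 68.5% of 2663 genes that were not chosen, 5 of 21 wide-gap higher genes (23.8%) and 18 of 72 wide-gap lower genes. Genes with wide gaps thus mostly had CpG-poor windows, although Tmsb4x did not.

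Short motifs were counted in the same windows. A GATA motif (AGATAA or AGATAG, or else TGATAA or TGATAG, on either strand) was in 17.2% of higher and 18.1% of lower windows, beside 17.3% of all. TATAA on either strand was in 12.3% of higher, 11.9% of lower and 11.2% of all windows. The E-box forms CACGTG and CAGCTG were in 9.13 and 10.4% of higher windows, 8.09 and 11.8% of lower windows and 8.56 and 11.1% of all. In the wide-gap genes, which are few, the GATA motif was in 28.6% of 28 higher and 27.7% of 83 lower windows, and TATAA in 21.4 and 19.3%. CACGTG was in 3.57 and 6.02% and CAGCTG in 7.14 and 20.5%. At 5 to 50 CPM the GATA motif was in 33.3% of 21 higher and 26.4% of 72 lower wide-gap windows, beside 17.8% of those not chosen. A match is a stretch of letters and says nothing of binding. In GENCODE transcripts of GRCm38, lengths were alike, with medians of 3268 bases for higher, 3060 for lower and 3108 for all tested genes, and more than a 25% share of 31-base words in common with other transcripts was found in 12.03, 12.91 and 14.21%.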

How the data were processed

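The deposited values are whole-number read counts per Ensembl gene, not normalized, for 12 libraries in 4 groups of 3, and the groups were taken from the labels. Per the labels' protocols, RNA came from an RNeasy kit and was made into TruSeq V2 libraries, a kit without strand marks. Per the submitters' processing notes the authors used cutadapt 1.1, TopHat 1.4.1, HTSeq 0.5.3p9, DESeq 1.10.1 and build mm9. Their settings are not stated in those notes. The 5 closing rows of each file that name no gene did not enter library sizes or tests. Gene symbols matched 32919 of the 37991 identifiers. The unmatched ones held 0.538 to 0.824% of gene reads.

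CPM is the count over the sum of gene counts. The chosen genes needed all 9 derived libraries strictly on one side of all 3 control libraries. For tests, filterByExpr kept 12837 genes, with TMM factors, and edgeR 4.0.16 in R 4.3.3 ran its quasi-likelihood fit and test (glmQLFit, glmQLFTest). The fit had 1 mean per group and all 12 libraries, with Benjamini-Hochberg adjustment over all genes kept. The contrasts were the mean log2 level of the derived lines minus control, the joint difference among the derived lines, and their 3 pairs. The script was tested on simulated data. Bounds use 3 reads over a group without reads, and intervals are exact at 95%.

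The chosen genes, the gene lists and the tests were chosen with earlier results of these data known. Named genes were the 12 with the widest gap each way at 5 CPM or more, leaving out clone, predicted, pseudogene and histone names. Up to 4 per list by gap were added, with the 4 each way with the smallest p and the smallest ratio among derived lines at 50 CPM or more. The 3 longest runs, the genes next to the edge of the rule, Ldb1 and the erythroid markers completed them, and other symbols given without values are further chosen genes of a list or run. Some genes that this rule names are not reported here. Replicates of a group always differed beyond counting noise (smallest chi-square per degree of freedom 2.182). Alternatives were RLE scaling, library totals, other filters, DESeq2 1.42.0, a replicate block, a 2-group fit, a test against 1.5-fold, leaving out each library or line, and another gene order and CpG threshold.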

Additional observations from a re-analysis of the deposited data

Results flagged for a closer look

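Reads that aligned outside annotated genes, which enter no comparison above, were more frequent in both construct lines than in any control library. They made up a mean of 5.7% of the tallied reads in delta45 (5.48 to 6.13%) and of 4.0% in FL (3.5 to 4.96%), against 3.0 to 3.19% in control and 2.12 to 3.08% in KD. Over the 9 derived libraries the mean was 4.083%, against 3.08% in control (exact two-sided permutation test over 220 splits, p = 0.3364). This test too shuffled single libraries and took no account of the derived lines. Which regions the reads outside genes came from was not analysed here.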

How the results depend on the processing

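The main counts were 3591 genes higher and 3975 lower in the mean log2 level of the derived lines. Against these, the 2-group fit gave 1378 and 1490, and the test against 1.5-fold gave 1070 and 1906. DESeq2 gave 3554 and 4143. Leaving out single libraries gave 2873 to 4012 higher and 3556 to 4349 lower. The choice of genes gave 1437 higher and 1992 lower with TMM-scaled CPM, keeping 93.3 and 90.4% of the genes above, and 210 and 674 with a gap of at least 1.5-fold. Without the KD line it gave 2298 and 3951, without the FL line 2433 and 2405, and without the delta45 line 1502 and 2517. Without single libraries it gave 1216 to 1690 higher and 2085 to 2648 lower, where fewer libraries make the rule easier to meet.

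With library totals only, FL minus KD over the chosen genes gave 389 higher and 1073 lower, and FL minus delta45 gave 549 and 960. The lists gave 5 cytokine receptor and 2 imprinted genes higher. With at least 1 read in any library, 2 myeloid markers were higher and 16 lower, and 7 HOX genes lower. At 5 CPM or more in 3 libraries, where fewer genes are tested, the numbers lower were 9 matrix, 6 myeloid, 2 mast, 3 stromal, 2 stem, 1 HOX and 3 germline genes. The numbers higher were 0 myeloid, 0 lymphoid, 0 stromal and 3 HOX genes. In the full gene order, 17.36% of higher and 23.05% of lower genes had such a neighbour, beside 7.868 and 13.07% of all placed genes in that order. Above the CpG threshold of 0.75 the shares were 54.9 and 38.8%, beside 49.0% of all.

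Leaving out single libraries gave these ranges of genes higher: heme 4 to 9, erythroid factors 9 to 16, matrix 3 to 6, cytokine receptors 3 to 10, myeloid 1 to 2, mast 1 to 2 (2 without control replicate 3), stromal 1 to 2 (1 without control replicate 2 or 3), germline 4 to 7, MHC 1 to 6, interferon 0 to 8 and replication 5 to 8 (5 without control replicate 1 or 2). The 2 myeloid genes came from leaving out any 1 library other than KD replicate 1 or 2. Genes lower ranged 5 to 9 for erythroid factors, 3 to 5 for HOX (5 without any KD replicate or FL replicate 2), 7 to 14 for MHC, 6 to 19 for interferon and 0 to 1 for ribosome biogenesis. The cause of these shifts was not tested.

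The replicate block gave 3659 genes higher and 4082 lower, and 2084 chosen genes called among the derived lines against 2070. Replicate numbers were not taken to pair the samples, since the labels do not say that they mark a shared culture or day. Of 18 correlations of same-numbered deviations, 9 were over 0.1. Those with control ran from -0.196 to 0.269, and the 9 among the derived lines from 0.031 to 0.248, all above 0. The block ended no call of a named gene against control. Of 2661 refits of the 148 named genes, 2650 kept the call and direction against control, 6 lost the call, 5 gained a call and 0 reversed. Most named genes were chosen because every derived library lay on the same side of control. The choice therefore largely fixed these outcomes, the block's included, and they do not test it. The settings that cut the main counts against control most were not among these refits. Depth limits genes with few reads, whose folds are bounds or wide intervals.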
